A study of Mus musculus with 15 samples.

Results

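Cells labelled as chemical-induced neurons on day 16 of an in vitro course (D16, 3 libraries) were compared with cells labelled primary neurons (PN, 3 libraries), both from mouse. The comparison covered every gene with at least 1 FPKM in 3 or more of these 6 libraries, which held 12966 of the 24346 gene symbols in the expression table and left 11380 below that level. FPKM, the number of fragments scaled by transcript length and by the library's mapped fragments, is a measure of a gene's RNA level in a library. Of the 12966 genes, 10664 reached 1 FPKM in all 6 libraries, 774 reached it in all D16 libraries and no PN library, 430 reached it in all PN libraries and no D16 library, and 1098 reached it in other combinations. The next genes on either side of the limit, by their third-highest FPKM, were Exoc3l at 1.00059 and Hdx at 1.00075 inside, and Fgf3 at 0.999597 and Cdr1 at 0.998143 outside.

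The study followed astrocytes from mouse brain under a chemical treatment, at days 0, 4, 8 and 16 in culture, and set primary neurons beside them. All 15 libraries were labelled with strain C57BL/6 and source brain. The chemicals, the culture medium of either group, the brain region, the age of the animals and the age of the primary neuron cultures are not given in the sources used here. The labels do not say whether the 3 libraries of a group came from separate cultures or animals, so every p-value below measures only the spread between these libraries, which may be technical. The comparison asks how close the RNA profile of the induced cells at the latest day came to that of neurons that were not made from astrocytes. RNA was measured in bulk, so fewer cells of a type and less RNA per cell cannot be told apart anywhere below.

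A neuron is recognised in RNA by several layers of genes. One layer is shared by nearly all neurons, such as the SNARE proteins and vesicle proteins that release transmitter, and another builds and extends axons and dendrites, such as tubulins, microtubule-associated proteins and doublecortin. Further layers differ between kinds of neuron: the transmitter they use, the neuropeptides they secrete, the receptor subunits they carry, and the transcription factors that record where along the body axis they arose, with Neurod6 in the cerebral cortex and Hox genes in the hindbrain and spinal cord. Astrocytes, the glia from which the induced cells were made, are marked by the filament protein Gfap, the water channel Aqp4 and the glutamate transporter Slc1a3.

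The label of primary neurons and that of induced neurons were checked on 10 pan-neuronal markers. Of these, 6 were higher in PN (Rbfox3, Map2, Tubb3, Stmn2, Elavl4 and the calcium sensor Syt1), and Snap25, Syp, Nefl and Elavl3 were not called. The lowest marker in D16 was the RNA-binding protein Elavl4 at 3.12, 2.34 and 3.85 FPKM. Rbfox3, the NeuN antigen of mature neurons, stood at 5.94, 5.01 and 5.797 FPKM in D16 replicates 1, 2 and 3 and 54, 70.3 and 26.1 FPKM in PN replicates 1, 2 and 3. Every PN library was above every D16 library for Rbfox3, and the D16 libraries lay close together at a low level.

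Markers of other cell types were also read in both groups. The astrocyte list of 26 genes summed to between 1272 and 2519 FPKM in the D16 libraries and between 757 and 1701 FPKM in PN, and 23 of its genes were compared, with 4 higher in D16 and 10 higher in PN, 4 of the latter at 1 FPKM in PN alone. Of the defining astrocyte markers, Gfap was 11.9, 0.161 and 0.573 FPKM in D16 and 21.9, 25.9 and 43.1 FPKM in PN, Slc1a3 was 3.29, 1.04 and 1.65 FPKM in D16 and 58.6, 109.7 and 72.7 FPKM in PN, and Aqp4 was 0.199, 0.394 and 0.581 FPKM in D16 and 3.17, 11.9 and 4.52 FPKM in PN. D16 replicate 1 held most of the Gfap of its group, and for these 3 genes all D16 libraries were below all PN libraries. The 4 list members higher in D16 went the other way, so the 3 markers do not stand for the whole list. Apoe was among those 4, with a call that was lost when replicate number was added to the limma model (adjusted p = 0.0534). The 18 microglia and macrophage genes summed to 326 to 846 FPKM in D16 and 22.6 to 34.9 FPKM in PN, a list that includes lysosomal genes such as Cd68. Of these genes 5 were compared, 3 higher in D16 (1 of them, Tmem119, at 1 FPKM in D16 alone) and 2 higher in PN (Aif1 and Tyrobp, both at 1 FPKM in PN alone). Tmem119, a microglial membrane protein, was 2.67, 2.31 and 3.72 FPKM in D16 and 0, 0 and 0.0281 FPKM in PN. Cx3cr1, P2ry12, C1qb, C1qc, Tyrobp, Fcer1g and Ctss were listed at 0 in all D16 libraries, and in PN Tyrobp was the highest of these 7 at 1.31, 2.72 and 3.62 FPKM. The oligodendrocyte list summed to 33.9 to 38.0 FPKM in D16 and 30.6 to 56.6 FPKM in PN, the endothelial and mural list to 11.2 to 12.3 FPKM and 2.90 to 8.19 FPKM, and the ependymal and choroid plexus list to 14.98 to 15.7 FPKM and 37.2 to 85.5 FPKM. RNA of glial and progenitor genes was present in PN: Fabp7, a fatty acid carrier of radial glia and astrocytes, was 32.97, 9.76 and 45.7 FPKM in D16 and 625, 1428 and 1696 FPKM in PN. The progenitor list as a whole was split. Of its 22 genes compared, 9 were higher in D16, 8 higher in PN (3 at 1 FPKM in PN alone) and 5 not called. Id1, on the D16 side, was 338, 105 and 296 FPKM in D16 and 3.74, 4.51 and 41.0 FPKM in PN.

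The 6 libraries summed to 548309 to 661015 FPKM, and 11861 to 12718 genes reached 1 FPKM in each. Read depth is not given in an FPKM table. Steps between the lowest values put the PN libraries at 1.69 to 2.03 times the depth of D16 replicate 1 and the other D16 libraries at 0.745 and 1.09 times, with 41.4 to 65.8% of the low-value ratios falling on whole-number ratios, so these depths are rough and the absolute depth is unknown. Correlations of log2(FPKM + 1) across genes, which are not independent replicates, were 0.963 to 0.982 among D16 libraries, 0.964 to 0.977 among PN libraries and 0.721 to 0.778 between the groups. D16 replicate 2 and PN replicate 3 stood farthest from their groups. In them 467 and 642 genes lay more than 2-fold from the log2 mean of the group's other libraries.

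The sequences upstream of 2 genes from each end of the comparison are shown first, the most changed ones with an entry in the RefSeq table of starts: Vip and Cdkn2a were far higher in D16, and Neurod6 and Islr2 far higher in PN. Each is the 250 bases before a transcript start in RefSeq on GRCm38.p6, read 5′ to 3′ on the strand of the gene. They lie at chr10:5638968-5639217 (plus strand) for Vip, chr4:89294620-89294869 (minus strand) for Cdkn2a, chr6:55681264-55681513 (minus strand) for Neurod6 and chr9:58204320-58204569 (minus strand) for Islr2. Capitals mark matches on either strand to 4 short motifs. The motif TGACG is the core of the cAMP response element. The motif TATAAA is the box that positions the polymerase at many tissue-specific genes. The remaining motifs, CAGATG (an E-box of proneural factors) and its relative CAGCTG, are bound by basic helix-loop-helix proteins. None of the 4 motifs contains another.
Vip: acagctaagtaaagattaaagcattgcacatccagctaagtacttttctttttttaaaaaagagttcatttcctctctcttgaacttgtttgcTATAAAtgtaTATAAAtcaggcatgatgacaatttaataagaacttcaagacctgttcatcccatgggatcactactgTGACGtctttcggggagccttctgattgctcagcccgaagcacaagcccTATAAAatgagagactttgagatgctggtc
Cdkn2a: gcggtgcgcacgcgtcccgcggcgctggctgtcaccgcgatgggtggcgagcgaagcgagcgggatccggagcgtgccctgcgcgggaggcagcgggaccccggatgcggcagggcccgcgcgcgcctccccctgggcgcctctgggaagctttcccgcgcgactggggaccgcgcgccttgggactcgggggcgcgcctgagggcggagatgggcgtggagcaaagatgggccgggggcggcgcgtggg
Neurod6: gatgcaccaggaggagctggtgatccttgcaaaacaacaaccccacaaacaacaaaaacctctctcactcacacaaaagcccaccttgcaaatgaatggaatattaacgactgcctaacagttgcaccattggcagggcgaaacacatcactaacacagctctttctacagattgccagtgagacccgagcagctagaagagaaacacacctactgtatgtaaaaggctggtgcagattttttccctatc
Islr2: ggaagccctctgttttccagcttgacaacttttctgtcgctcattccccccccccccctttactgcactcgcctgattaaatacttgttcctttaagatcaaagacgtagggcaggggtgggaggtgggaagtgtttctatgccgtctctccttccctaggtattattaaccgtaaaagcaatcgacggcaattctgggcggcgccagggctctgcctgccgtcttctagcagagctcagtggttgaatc
The starts are those of the RefSeq promoter table, and for Vip that start lies downstream of the first base of the annotated gene, so the last bases of its window lie inside the gene. The Vip window held TGACG starting 79 bases before the start and TATAAA starting 30, 147 and 157 bases before it, and had a GC content of 38.4% with 3 CpG dinucleotides. The Cdkn2a window had a GC content of 78.4% with 40 CpG dinucleotides, the Neurod6 window 46.0% with 3, and the Islr2 window 52.4% with 10. No searched motif was found in the Cdkn2a, Neurod6 and Islr2 windows, which says only that these letters are absent from these stretches. Over all 27025 windows of this length in the RefSeq table, 17.9% held TGACG, 13.0% TATAAA, 14.5% CAGATG and 12.8% CAGCTG. A match is a description of the sequence and not evidence of binding.

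Differences between the induced cells and the primary neurons ran in both directions and were large. Of the 12966 genes, 2673 (20.6%) were higher in D16 and 2068 (15.9%) higher in PN, 36.6% in all, at an adjusted p below 0.05 in limma and a change of at least 1 on the log2(FPKM + 1) scale. Each change below is D16 minus PN on that scale, given ± its standard error, and understates the fold of genes with low FPKM. Of the called genes, 982 were over 4-fold higher in D16 and 683 over 4-fold higher in PN, and 40 and 21 were over 32-fold apart. In 4608 genes (35.5%) all D16 libraries lay above all PN libraries, and in 4016 genes (31%) all PN libraries lay above. On the side of likeness, 5344 genes (41.2%) had a 95% interval wholly within 2-fold in either direction, and 2881 (22.2%) were neither called nor held within 2-fold. The median change over all 12966 genes was 0.05 and the median size of a change was 0.72, against a median standard error of 0.20.

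Among genes at 1 FPKM in all 6 libraries, 14.99% were higher in D16 and 14.1% higher in PN. A gene that reached 1 FPKM in one group alone had little room to be anything but higher in that group, so the counts for gene lists below say how many members were of that kind where a list held more than 3; over the 11762 genes not of that kind, 16.9% were higher in D16 and 14.4% higher in PN. A single gene below 1 FPKM in every library of one group and at 1 FPKM or more in all of the other likewise had its direction fixed. A p-value adds nothing to that direction, also where this is not repeated below. Lists of genes were described by these counts and by their median change, with no test of a list as a whole. Each count stands beside the shares of all genes compared, 20.6% higher in D16 and 15.9% higher in PN.

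**Figure D1:**
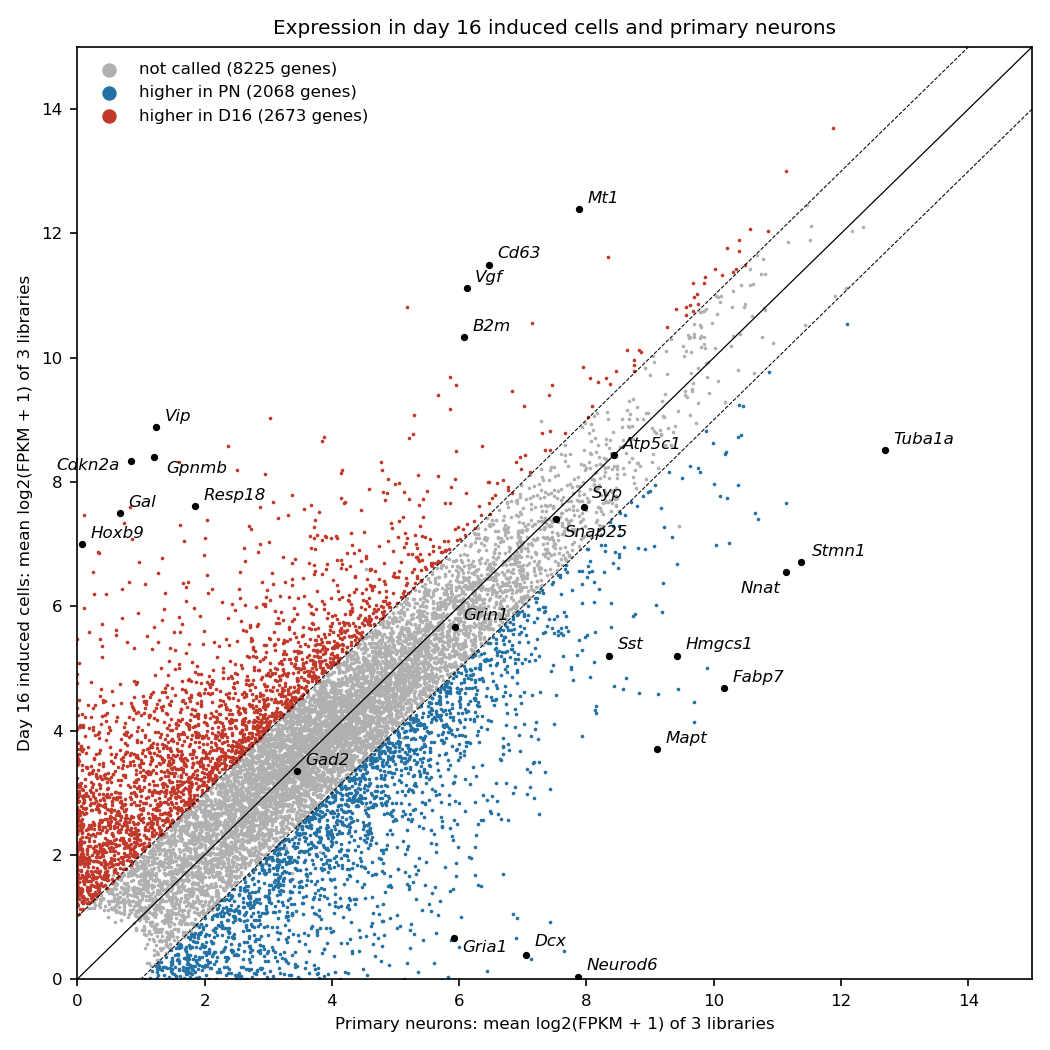
Mean log2(FPKM + 1) of the 3 D16 libraries (vertical axis) against that of the 3 PN libraries (horizontal axis) for the 12966 genes compared; colours mark genes called higher in D16 (2673), higher in PN (2068) or not called, and dashed lines mark a difference of 1. Genes called in both directions spread over the whole range of levels.

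Among the 42 gene lists, that of axon growth and neuronal migration had the largest share of genes higher in PN. Of 30 listed genes of the growth and migration cytoskeleton, all 30 were compared, 26 were higher in PN (1 of them at 1 FPKM in PN alone), none was higher in D16 (0 also at an unadjusted p below 0.05 in limma) and 4 were not called, with a median change of -2.61 beside 0.05 over all genes. As a share of all FPKM they took 5.19 to 5.57% of the PN libraries and 0.707 to 0.802% of the D16 libraries. Dcx, doublecortin, which stabilises microtubules in migrating and immature neurons, is annotated at chrX:143855842-143933396 on GRCm38 and stood at 0.3305, 0.209 and 0.414 FPKM in D16 and 115, 153 and 129.8 FPKM in PN. The D16 level of Dcx was below 1 FPKM in every library and the groups were far apart, with a change of -6.66 ± 0.15 (limma, adjusted p = 2.0e-13). Dcx is the 1 member at 1 FPKM in PN alone, so its direction was fixed by how it passed and the p-value adds nothing to that.

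Stmn1, stathmin, a tubulin-binding protein of growing cells, was 119, 77.5 and 120.1 FPKM in D16 and 2635, 2647 and 2680.1 FPKM in PN. The PN libraries lay very close together and every D16 library was far below them, with a change of -4.67 ± 0.27 (adjusted p = 2.5e-09). Mapt, which encodes tau of the axon, was 16.1, 13.1 and 8.15 FPKM in D16 and 623, 506 and 537 FPKM in PN, a change of -5.41 ± 0.29. Tubb3, the neuronal beta-tubulin, was 178, 177 and 149.6 FPKM in D16 and 1701, 1647 and 1633 FPKM in PN. Tubb3 was thus well expressed in D16, at roughly the same level in each library, and lay -3.30 ± 0.39 from PN. Map2, the dendritic microtubule protein, changed by -2.77 ± 0.24, Dpysl3, which acts downstream of semaphorins in the growth cone, by -5.24 ± 0.26, and Nrep by -5.55 ± 0.35. The same direction held for Tuba1a, the main embryonic neuronal alpha-tubulin, chosen after its values were seen because it was the most abundant gene in PN, with means of 386 FPKM in D16 and 6597 FPKM in PN. Members that were not called included Dclk1, a close relative of Dcx, at 156, 113 and 112 FPKM in D16 and 169, 139 and 119 FPKM in PN, and the transcription factor Sox11 at 44.1, 67.7 and 50.01 FPKM in D16 and 60.7, 38.9 and 58.02 FPKM in PN. Both lay within 2-fold of PN, with intervals of -0.71 to 0.38 and -0.44 to 0.52.

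The intermediate filaments differed from the microtubule genes. Of the 9 compared, 3 were higher in D16, 1 was higher in PN (2 without D16 replicate 2 or without PN replicate 3) and 5 were not called. Nefh, the heavy neurofilament chain of large-calibre axons, was 15.6, 18.98 and 12.7 FPKM in D16 and 2.697, 3.67 and 1.22 FPKM in PN, a change of 2.30 ± 0.23. All D16 libraries of Nefh were above all PN libraries. The light chain Nefl was 132, 231 and 104 FPKM in D16 and 149.7, 112 and 52.97 FPKM in PN, with overlapping groups, and the medium chain Nefm changed by 0.75 ± 0.33 without being called. Vim, the filament of progenitors, astrocytes and fibroblasts, was 712, 1609.5 and 687 FPKM in D16 and 177, 98.3 and 847 FPKM in PN. PN replicate 3 held far more Vim than the other PN libraries and exceeded D16 replicates 1 and 3, so the groups overlapped, and the call at 1.91 ± 0.55 was lost when only the 6 libraries were fitted (adjusted p = 0.0537).

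The synapse was carried unevenly. Of the 37 genes of synaptic vesicles and release that were compared, 20 were higher in PN, 3 higher in D16 and 14 not called, with a median change of -1.06. The core fusion gene Snap25, a SNARE protein of the plasma membrane, annotated at chr2:136713439-136782428, was 168, 135 and 213 FPKM in D16 and 184, 283 and 118 FPKM in PN. The groups overlapped, the change was -0.12 ± 0.27, and its interval of -0.69 to 0.46 lay within 2-fold. Syp, synaptophysin of the vesicle membrane, was 219, 155 and 212 FPKM in D16 and 283, 334 and 161 FPKM in PN, with an interval of -0.88 to 0.16, and the vesicle SNARE Vamp2 changed by -0.52 ± 0.19, with an interval of -0.93 to -0.10, although all PN libraries of Vamp2 were above all D16 libraries. These 3 release genes thus lay within 2-fold in cells that differed many-fold in Dcx and Stmn1.

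Other release genes separated the groups by isoform. The vesicle protein Sv2b was 0.407, 0.282 and 0.437 FPKM in D16 and 30.6, 31.5 and 8.53 FPKM in PN, while its relative Sv2c was 8.96, 37.3 and 16.8 FPKM in D16 and 5.07, 2.25 and 1.58 FPKM in PN. Sv2b was higher in all PN libraries and Sv2c in all D16 libraries, with changes of -3.96 ± 0.33 and 2.35 ± 0.44. Of the synaptotagmins, the calcium sensors of release, Syt2, the fast form of hindbrain and spinal synapses and of motor terminals, changed by 2.64 ± 0.27 and Syt5 by -3.78 ± 0.22. Cplx2, a complexin that clamps the fusion machinery, changed by -3.68 ± 0.23, and Rims2, a scaffold of the active zone, by 1.53 ± 0.24.

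On the receiving side of the synapse most genes were higher in PN. Of 27 glutamate receptor and auxiliary genes compared, 20 were higher in PN, 6 of them at 1 FPKM in PN alone, 1 was higher in D16 and 6 were not called; over the 21 genes outside those 6 the median change was -1.58. The AMPA receptor subunit Gria1, annotated at chr11:57011571-57330244, was 1.16, 0.357 and 0.361 FPKM in D16 and 52.3, 89.2 and 44.8 FPKM in PN. Gria1 was near or below 1 FPKM in the D16 libraries and well expressed in all PN libraries, a change of -5.25 ± 0.32 (adjusted p = 4.0e-09). Gria2, which sets the calcium permeability of AMPA receptors, was 20.8, 14.7 and 18.5 FPKM in D16 and 74.2, 106 and 68.7 FPKM in PN, a change of -2.13 ± 0.37. Gria3 was 14.2, 7.81 and 6.72 FPKM in D16 and 7.13, 12.95 and 6.98 FPKM in PN, with overlapping groups and an interval of -0.47 to 0.60. Cnih2, an auxiliary protein of AMPA receptors, changed by -3.90 ± 0.29, and Grm5, a metabotropic receptor, by -3.70 ± 0.25.

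Grin1, the obligatory subunit of NMDA receptors, was 41.97, 63.6 and 46.9 FPKM in D16 and 79.3, 59.6 and 45.5 FPKM in PN. The groups overlapped and the interval of -0.78 to 0.26 lay within 2-fold. Grid1, of the delta receptor family, was the 1 member higher in D16, at 51.01, 44.96 and 41.02 FPKM in D16 and 17.1, 23.3 and 10.3 FPKM in PN. The AMPA receptor genes thus differed by subunit, with Gria3 within 2-fold, Gria2 lower in D16 and Gria1 near or below 1 FPKM in D16.

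Of the 25 postsynaptic density genes compared, 13 were higher in PN, 1 higher in D16 and 11 not called. Camk2a, the calcium-dependent kinase of excitatory spines in forebrain, was 0.0927, 0.4099 and 0.117 FPKM in D16 and 44.1, 89.6 and 27.3 FPKM in PN, a change of -5.35 ± 0.49. All D16 libraries of Camk2a were below 1 FPKM. Camk2a reached 1 FPKM in PN alone, so its direction was fixed by how it passed. Camk2b changed by -4.01 ± 0.28, the scaffold Dlg2 by -5.03 ± 0.24 and Shank1 by -2.64 ± 0.31. Homer1 was within 2-fold at 16.3, 25.6 and 18.4 FPKM in D16 and 23.1, 19.96 and 16.5 FPKM in PN, while its relative Homer3 was the 1 member higher in D16, with a change of 1.58 ± 0.20.

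Receptors for the inhibitory transmitters also differed by subunit. Of 20 GABA and glycine receptor and chloride transporter genes compared, 8 were higher in PN, 2 higher in D16 and 10 not called, with a median change of -0.51. The GABA-A receptor subunit Gabra5 was 1.04, 2.43 and 2.22 FPKM in D16 and 88.5, 93.3 and 62.9 FPKM in PN. Among glycine receptor genes, Glra2, the fetal alpha subunit, was 0.1403, 0.639 and 1.18 FPKM in D16 and 20.8, 17.5 and 24.6 FPKM in PN, and Glra1, the alpha subunit of adult brainstem and spinal cord, was 3.403, 6.32 and 7.57 FPKM in D16 and 0, 0 and 0 FPKM in PN. Glra1 was listed at 0 in every PN library, so no fold is given, and Glra2 ran the opposite way with all PN libraries above all D16 libraries. The beta subunit Glrb, which joins either alpha subunit, was 40.4, 27.2 and 45.98 FPKM in D16 and 37.6, 47.3 and 28.6 FPKM in PN, with an interval of -0.47 to 0.47. Slc12a5, the potassium-chloride transporter KCC2 that makes GABA inhibitory in mature neurons, was 64.5, 85.6 and 70.7 FPKM in D16 and 22.3, 34.2 and 12.4 FPKM in PN. All D16 libraries of Slc12a5 were above all PN libraries, with a change of 1.74 ± 0.32 (adjusted p = 2.7e-04).

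**Figure D2:**
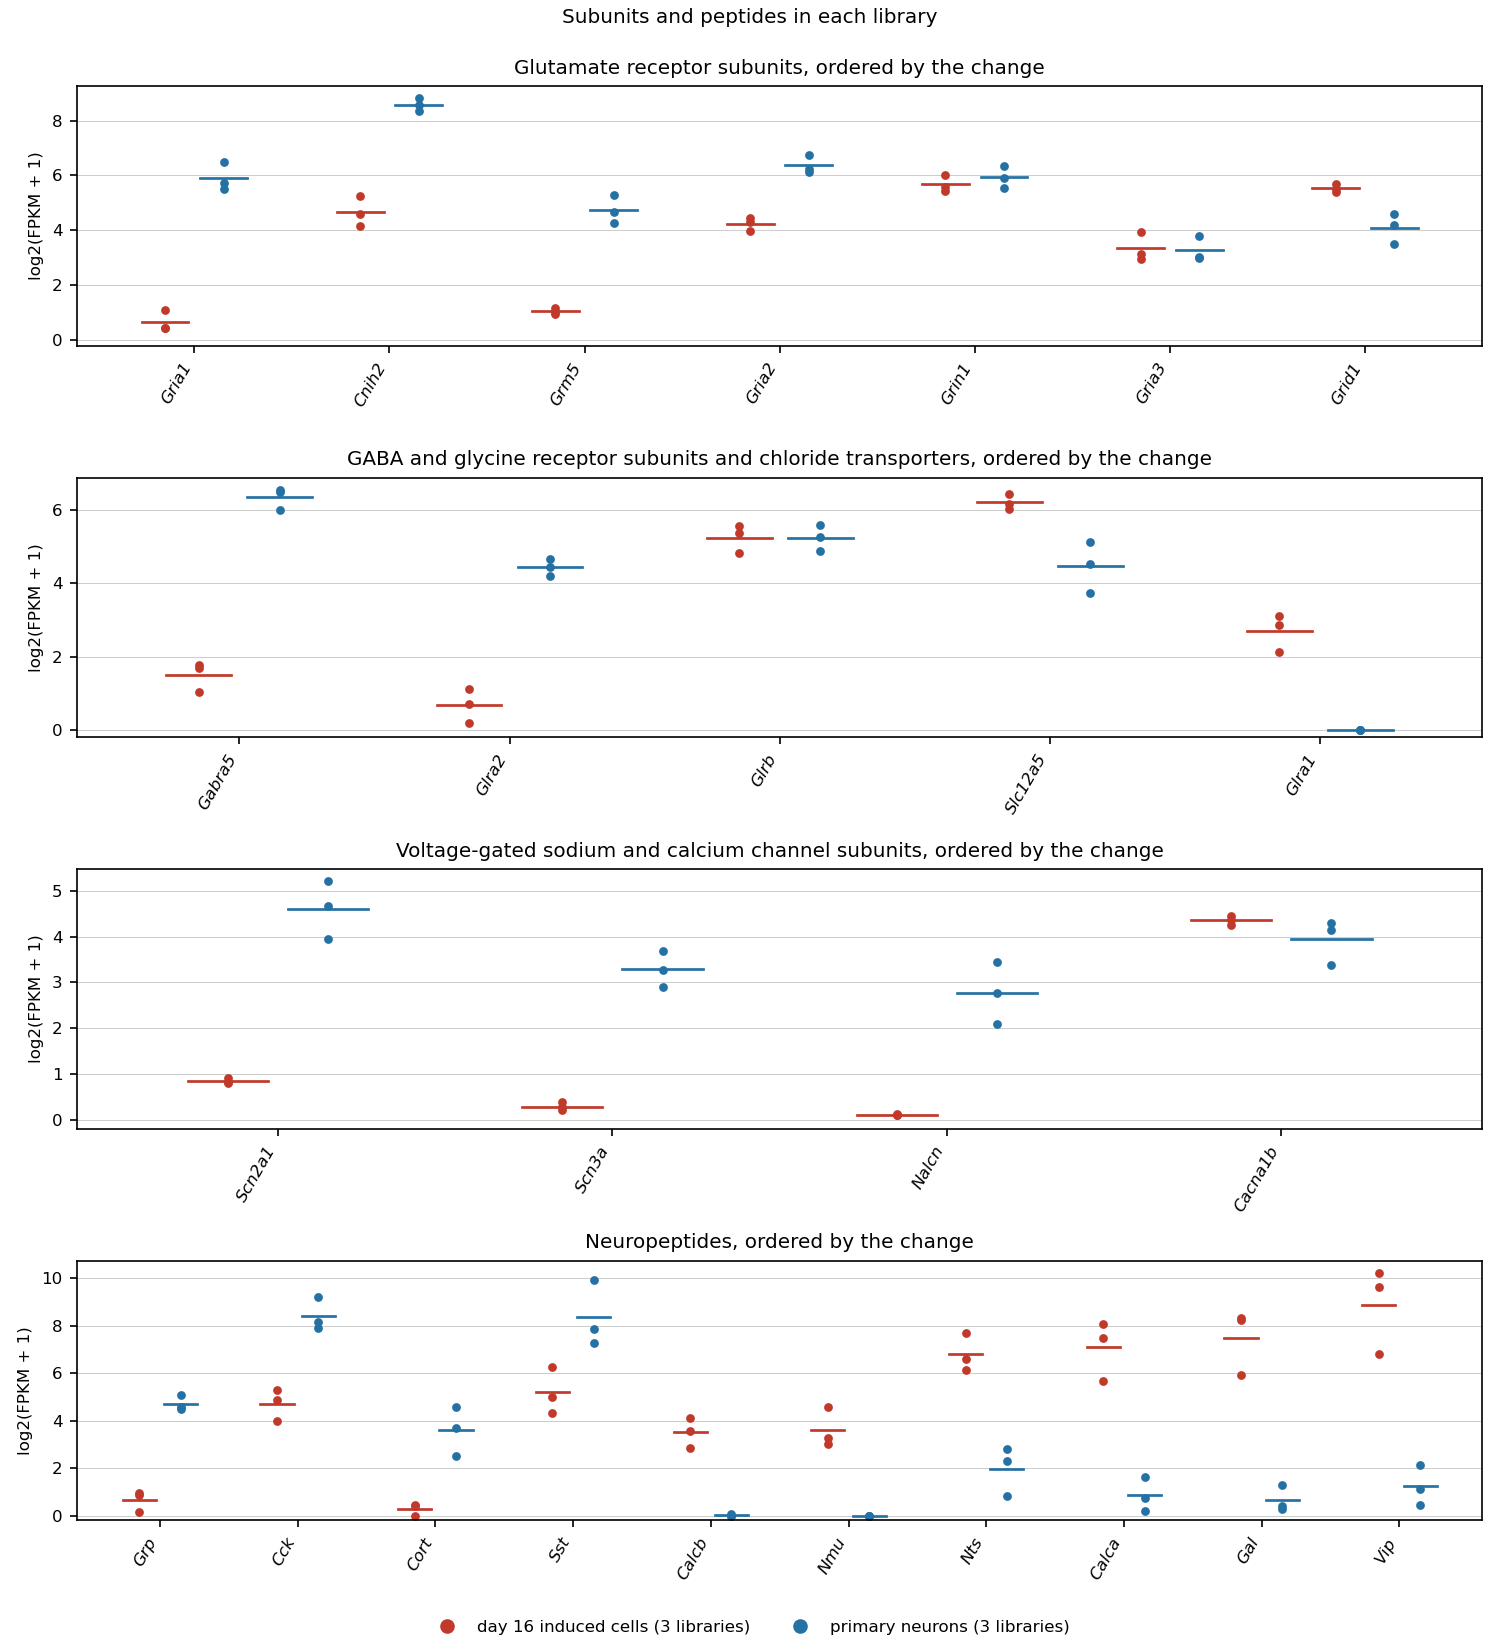
FPKM on a log2(FPKM + 1) axis in each of the 3 D16 and 3 PN libraries, with a bar at each group's mean. The genes are those named in the text for glutamate, GABA and glycine receptors, sodium and calcium channels, and neuropeptides. Within each panel genes are ordered by their change. Related subunits fall on opposite sides of a panel, such as Glra1 and Glra2, and Grin1 and Glrb have overlapping libraries.

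Channel genes were called higher in PN more often than in D16. For sodium and calcium channels 41.7% were higher in PN and 12.5% in D16, beside 15.9% and 20.6% of all genes compared. Of 24 voltage-gated sodium and calcium channel genes compared, 10 were higher in PN (5 of them at 1 FPKM in PN alone), 3 higher in D16 (1 of them at 1 FPKM in D16 alone) and 11 not called. Scn2a1, the sodium channel of early axons, was 0.755, 0.7801 and 0.8697 FPKM in D16 and 24.4, 36.2 and 14.5 FPKM in PN, and the related Scn3a changed by -3.0 ± 0.17. Scn2a1 was below 1 FPKM in all D16 libraries. The leak channel Nalcn changed by -2.67 ± 0.29, and the N-type calcium channel Cacna1b, which triggers release, lay within 2-fold at 17.99, 20.9 and 19.6 FPKM in D16 and 16.8, 18.6 and 9.403 FPKM in PN.

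Of 48 potassium and HCN channel genes, 21 were higher in PN, 8 of them at 1 FPKM in PN alone, and 23 were not called. As shares, 43.8% were higher in PN and 8.3% in D16, beside 15.9% and 20.6% of all genes compared. The 4 called higher in D16 became 2 without D16 replicate 2 or without PN replicate 3 and 1 without both. Kcnd2, a carrier of dendritic A-type current, changed by -3.57 ± 0.17, its partner Kcnip1 by -3.67 ± 0.21, and Kcnj3, a G-protein-gated channel, by -2.65 ± 0.18.

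Of the genes that make GABA and load it into vesicles, Gad2 lay within 2-fold of PN, Slc32a1 was higher in D16, and Gad1 was called higher in D16 with a call that most alternatives did not keep. Of 22 genes of GABAergic neurons compared, 7 were higher in D16 (4 at 1 FPKM in D16 alone), 8 higher in PN (2 at 1 FPKM in PN alone) and 7 not called. Gad2, which makes GABA at synapses, was 9.35, 8.21 and 10.02 FPKM in D16 and 11.1, 16.5 and 5.24 FPKM in PN, with an interval of -0.88 to 0.66 within 2-fold. Slc32a1, the vesicular transporter of GABA and glycine, was 51.7, 69.6 and 91.2 FPKM in D16 and 25.6, 33.5 and 14.1 FPKM in PN. All D16 libraries were above all PN libraries, with a change of 1.54 ± 0.42, a call that was lost when D16 replicate 2 and PN replicate 3 were both left out (1.21, adjusted p = 0.0548). Gad1, the other GABA-making enzyme, was 78.9, 95.9 and 204 FPKM in D16 and 50.5, 75.5 and 37.2 FPKM in PN, a change of 1.13 ± 0.46; it was called with all libraries and missed when D16 replicate 2 (1.27, adjusted p = 0.0529), D16 replicate 3 (0.73, adjusted p = 0.209), PN replicate 1 (1.11, adjusted p = 0.0902) or PN replicate 3 (0.89, adjusted p = 0.147) was left out. The call of Gad1 was also lost with the replicate block (adjusted p = 0.0553), a pseudocount of 0.1 FPKM (0.0594), equal FPKM totals (0.0685) and no filter on low values (0.0792), 9 of the 16 alternatives in all.

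The calcium-binding proteins that divide inhibitory neurons into classes differed in level between the groups. Calb2, calretinin, was 0.369, 0.608 and 0.697 FPKM in D16 and 46.1, 86.1 and 48.7 FPKM in PN, a change of -5.25 ± 0.22. Pvalb, parvalbumin, was 9.73, 14.3 and 21.3 FPKM in D16 and 0.0755, 0.686 and 0.07903 FPKM in PN, and Calb1, calbindin, was 49.6, 67.7 and 57.2 FPKM in D16 and 13.6, 20.5 and 3.12 FPKM in PN. Calb2 was below 1 FPKM in every D16 library, whereas Pvalb was below 1 FPKM in every PN library and Calb1 was higher in all D16 libraries. Calb2 thus passed through PN alone and Pvalb through D16 alone, so the direction of each was fixed by how it passed. Among transcription factors of the list, the forebrain interneuron gene Dlx5 changed by -1.63 ± 0.21, while Lhx5 and Pax2, expressed in inhibitory neurons of spinal cord and hindbrain, changed by 2.05 ± 0.15 and 2.26 ± 0.33. Dlx1 was within 2-fold at 11.8, 5.97 and 11.98 FPKM in D16 and 6.61, 14.7 and 6.66 FPKM in PN.

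Among called genes of glutamatergic and cortical projection neurons, more were higher in PN than in D16. Of 27 compared, 15 were higher in PN (4 at 1 FPKM in PN alone), 2 higher in D16 (1 without D16 replicate 2, PN replicate 2 or PN replicate 3) and 10 not called, and of the 23 genes outside those 4, 11 were higher in PN, with a median change of -0.97. The vesicular glutamate transporter Slc17a7 was 23.5, 25.2 and 24.2 FPKM in D16 and 38.4, 69.1 and 16.3 FPKM in PN, with overlapping groups, and its change of -0.52 ± 0.36 was not called. Slc17a6, the second vesicular glutamate transporter, was 0.557, 1.33 and 2.24 FPKM in D16 and 18.4, 22.9 and 10.99 FPKM in PN, a change of -2.96 ± 0.26. Neurod6, a basic helix-loop-helix factor of pyramidal neurons annotated at chr6:55677818-55681263, was 0, 0.0837 and 0 FPKM in D16 and 270.4, 247 and 191 FPKM in PN. It was listed at 0 in D16 replicates 1 and 3 and was high in every PN library, the largest change toward PN among the genes named here, at -7.83 ± 0.15 (adjusted p = 2.9e-14). Neurod6 is among the 4 at 1 FPKM in PN alone, so its direction was fixed by how it passed and the p-value adds nothing to that.

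Related factors followed. Bhlhe22, another helix-loop-helix factor, was 0.445, 0.324 and 0.318 FPKM in D16 and 174, 213 and 214 FPKM in PN, Neurod2 changed by -4.57 ± 0.18, the layer 6 factor Tbr1 by -3.86 ± 0.14, Emx1 by -3.98 ± 0.22 and Mef2c by -4.21 ± 0.38. Cux1 lay within 2-fold at 38.1, 44.5 and 34.1 FPKM in D16 and 47.7, 42.1 and 39.97 FPKM in PN. Rorb, also on the list, was called higher in D16, a call that was lost in 6 of the 16 alternatives. Rest, which represses neuronal genes outside neurons, was 10.4, 4.57 and 8.86 FPKM in D16 and 1.35, 1.09 and 2.302 FPKM in PN, with all D16 libraries above all PN libraries and a change of 1.76 ± 0.28. Myt1l, which represses non-neuronal genes in neurons, was 0.568, 0.309 and 0.391 FPKM in D16 and 42.6, 45.7 and 25.3 FPKM in PN, a change of -4.73 ± 0.21. Myt1l reached 1 FPKM in PN alone, so its direction was fixed by how it passed and its contrast with Rest adds nothing to that. Of 26 proneural and neuronal transcription factors compared, 9 were higher in D16 (5 at 1 FPKM in D16 alone). A further 11 were higher in PN (4 at 1 FPKM in PN alone) and 6 were not called.

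Hox genes, which record position along the hindbrain and spinal cord, were present in D16 and near or at 0 in PN. Of the 42 listed Hox and Cdx genes, 25 passed the limit of 1 FPKM, all of them through D16 alone, so their direction was fixed by how they passed and their count supports nothing further. Their levels were as follows. Hoxb9, annotated at chr11:96271330-96276595, was 46.6, 138 and 315 FPKM in D16 and 0.156, 0 and 0 FPKM in PN. The 3 D16 libraries of Hoxb9 spread widely, and 2 of the 3 PN libraries listed it at 0. Hoxb7 was 32.1, 33.6 and 74.6 FPKM in D16 and 0, 0 and 0 FPKM in PN and Hoxc10 was 11.01, 22.3 and 22.4 FPKM in D16 and 0.231, 0 and 0.0309 FPKM in PN. The whole list took 0.0335 to 0.0932% of all FPKM in the D16 libraries, with replicate 3 highest, and at most 0.000143% in a PN library. Genes of the Hoxa, Hoxb, Hoxc and Hoxd clusters were all among the 25.

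Genes of cholinergic, monoaminergic, sensory and autonomic neurons were similar in kind: 18 of 31 passed, 14 of them through D16 alone. The vesicular acetylcholine transporter Slc18a3 was 12.7, 14.96 and 21.9 FPKM in D16 and 0.0885, 0 and 0 FPKM in PN, the sympathetic factor Hand2 was 8.96, 8.14 and 18.8 FPKM in D16 and 0, 0 and 0 FPKM in PN, and the motor neuron factor Isl2 was 7.898, 8.76 and 10.3 FPKM in D16 and 0.2102, 0.135 and 0.193 FPKM in PN. All 3 genes are among those 14, so their direction was fixed by how they passed. Of the 4 genes outside those 14, 2 were higher in D16, 0 higher in PN and 2 not called. Slc18a2, the vesicular transporter of monoamines, was 1.65, 2.26 and 2.17 FPKM in D16 and 1.65, 1.35 and 0.925 FPKM in PN and lay within 2-fold.

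Neuropeptide genes gave some of the largest differences. Of 24 compared, 14 were higher in D16 (5 at 1 FPKM in D16 alone), 5 higher in PN (2 at 1 FPKM in PN alone) and 5 not called. Vip, vasoactive intestinal peptide, annotated at chr10:5639193-5647617, was 112, 789 and 1190.5 FPKM in D16 and 0.378, 3.45 and 1.17 FPKM in PN. Every D16 library of Vip exceeded every PN library, replicate 1 being the lowest of the D16 group, and the change of 7.64 ± 0.69 was the largest toward D16 among the genes named here (adjusted p = 2.0e-07). Gal, galanin, annotated at chr19:3409915-3414544, was 304, 59.5 and 319.9 FPKM in D16 and 1.45, 0.205 and 0.346 FPKM in PN, a change of 6.84 ± 0.56. Calca, which encodes calcitonin and the sensory peptide CGRP, was 180.4, 50.4 and 268 FPKM in D16 and 0.132, 0.675 and 2.13 FPKM in PN; its near copy Calcb can share reads with it, so its value is uncertain. D16 replicate 2 was the lowest of its group for Gal and Calca and not for Vip, so the D16 libraries differed in their order from peptide to peptide.

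Other peptides of cortical interneurons ran the opposite way to Vip. Sst, somatostatin, was 31.1, 19.3 and 75.8 FPKM in D16 and 982, 154 and 231 FPKM in PN, a change of -3.16 ± 0.56. Cck, cholecystokinin, was 28, 14.8 and 38.6 FPKM in D16 and 288, 589 and 238 FPKM in PN, a change of -3.71 ± 0.31, and Cort, a relative of somatostatin, changed by -3.32 ± 0.37. All PN libraries of Sst and Cck were above all D16 libraries, and PN replicate 1 held several times more Sst than the other PN libraries. The gastrin-releasing peptide gene Grp changed by -4.06 ± 0.29. Nts, neurotensin, changed by 4.83 ± 0.47 toward D16, and Nmu, neuromedin U, was listed at 0 in all PN libraries and was 7.06, 8.796 and 22.9 FPKM in D16.

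The machinery that packs and cuts peptides was higher in D16 more often than in PN. Of 19 granin and processing genes compared, 10 were higher in D16, 2 higher in PN and 7 not called, with a median change of 1.07. Vgf, a granin-like protein induced by neurotrophins, was 3212, 1861 and 1833 FPKM in D16 and 158, 31.2 and 64.8 FPKM in PN. Every D16 library of Vgf was more than 10 times as high as the highest PN library, a change of 5.0 ± 0.47 (adjusted p = 3.6e-07). Chga, chromogranin A of dense-core granules, was 316, 149 and 241 FPKM in D16 and 85.2, 73.2 and 50.9 FPKM in PN, Ptprn, a membrane protein of the same granules, changed by 2.25 ± 0.27, and Resp18 by 5.75 ± 0.37. Scg5, a chaperone of a processing protease, was 403, 158 and 448 FPKM in D16 and 333, 454 and 269 FPKM in PN and was not called.

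**Figure D3:**
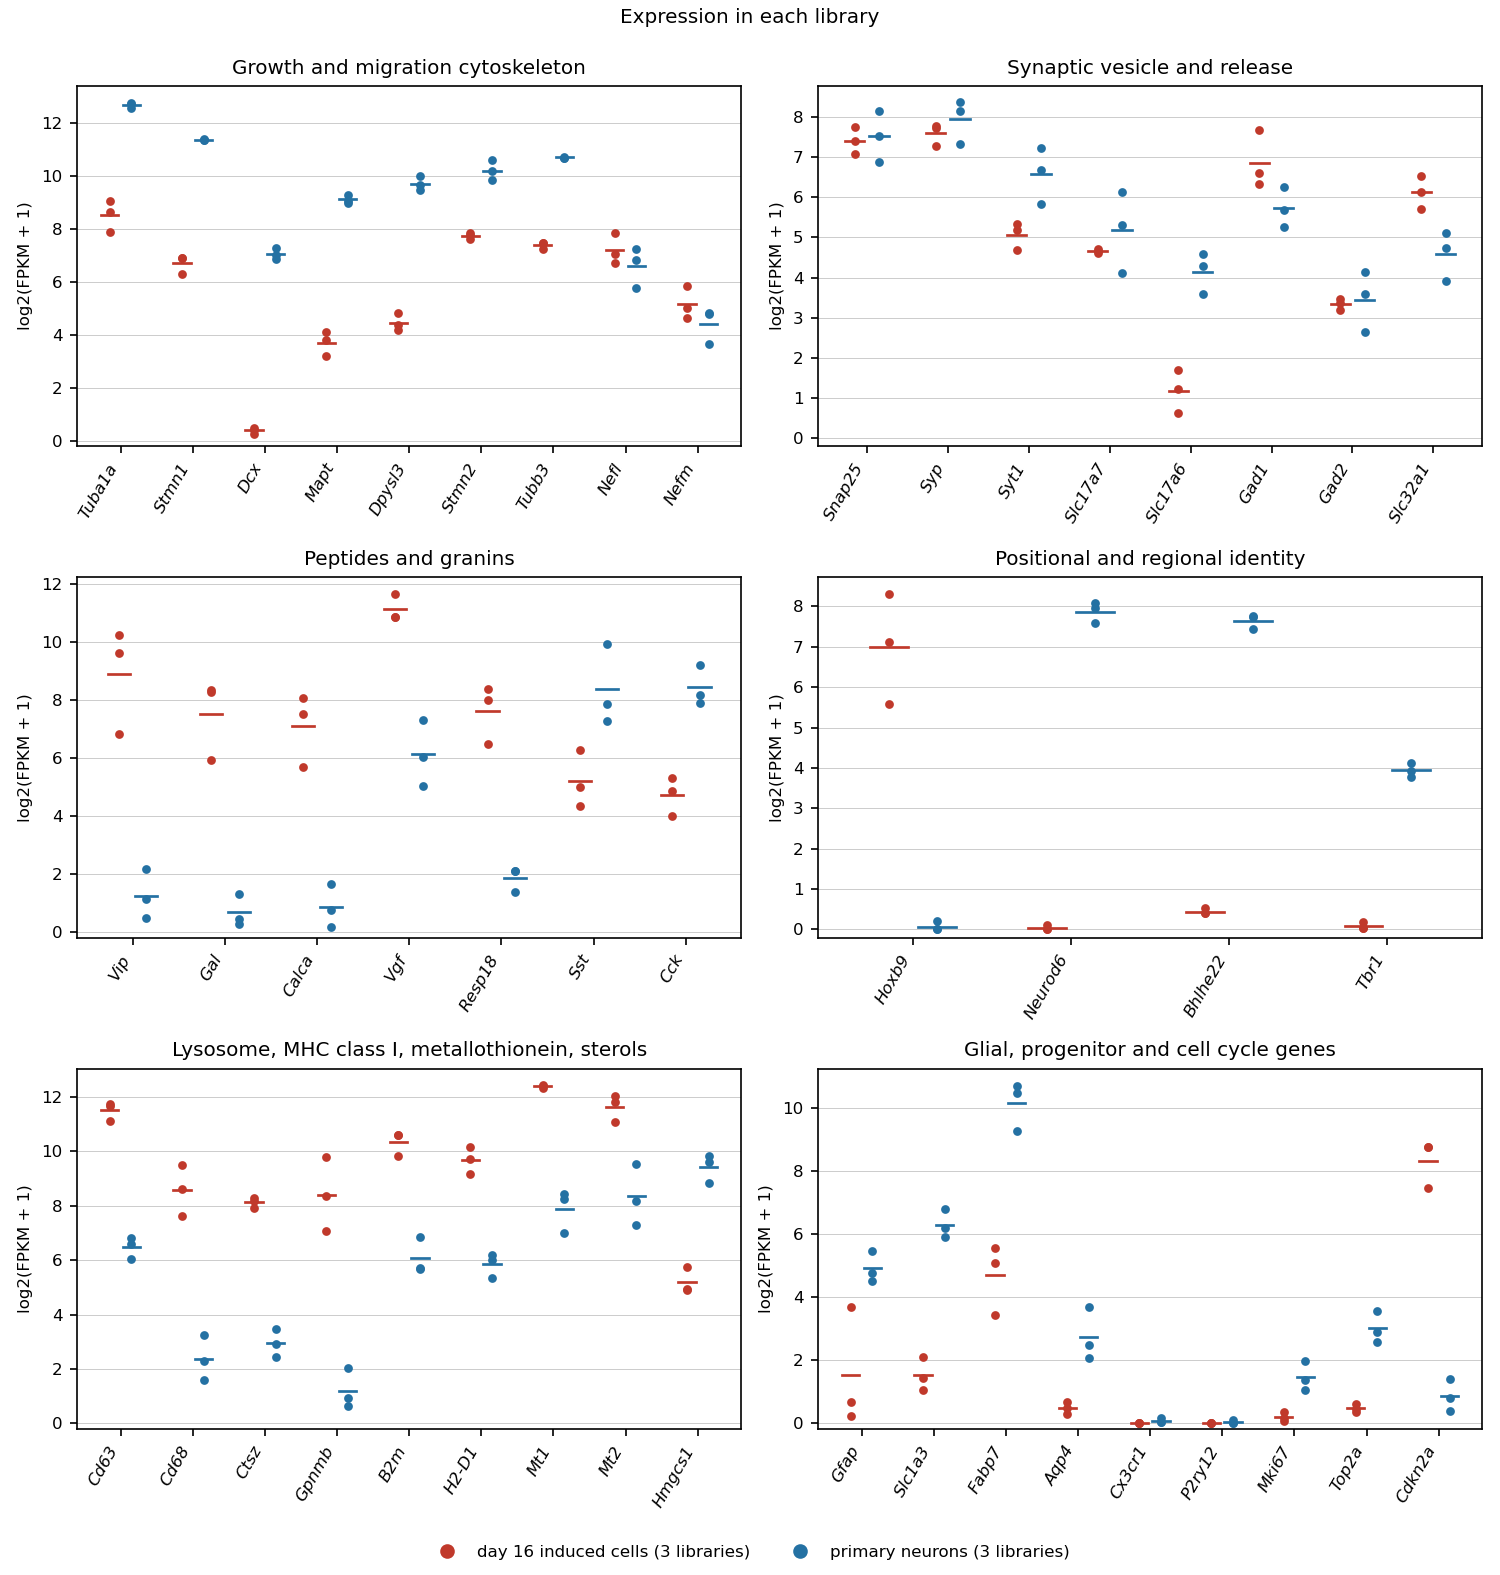
FPKM on a log2(FPKM + 1) axis for selected genes in each of the 3 D16 and 3 PN libraries, in 6 panels by role, with a bar at each group's mean. Dcx and Neurod6 lie low in every D16 library, Vip, Hoxb9 and Cdkn2a lie low in every PN library, and the libraries of Snap25 and Syp overlap.

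Splicing factors that set neuronal isoforms were lower in D16 in part. Of 24 compared, 11 were higher in PN, 3 higher in D16 and 10 not called, with a median change of -0.81. Rbfox1 was 4.71, 4.27 and 4.29 FPKM in D16 and 34.7, 58.2 and 37.1 FPKM in PN, a change of -2.99 ± 0.22, and Celf2 changed by -2.30 ± 0.16. Ptbp1, which blocks neuronal splicing and is switched off as neurons form, was 47.6, 51.3 and 43.5 FPKM in D16 and 14.1, 11.2 and 32.7 FPKM in PN. PN replicate 3 was the highest of its group for Ptbp1, and all D16 libraries were still above it, with a change of 1.40 ± 0.26. Elavl3 was 72.6, 71.9 and 59.1 FPKM in D16 and 120.0, 119 and 104 FPKM in PN and was not called.

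Adhesion and guidance genes were higher in PN more often than in D16. Of 48 synaptic adhesion genes compared, 24 were higher in PN (6 at 1 FPKM in PN alone), 3 higher in D16 (5 without PN replicate 1 or PN replicate 2) and 21 not called. Chl1, a member of the L1 family, changed by -5.93 ± 0.41, Cntn1 by -3.95 ± 0.35 and Ntm by -3.85 ± 0.35. Cntnap1, which lines the axon beside myelin, was 7.58, 9.57 and 9.31 FPKM in D16 and 0.707, 1.04 and 0.372 FPKM in PN, higher in all D16 libraries. Of 47 guidance genes, 18 were higher in PN, 6 higher in D16 and 23 not called. Islr2, which promotes axon growth and is annotated at chr9:58196297-58204319, was 0.216, 0.372 and 0.193 FPKM in D16 and 98.6, 126 and 214 FPKM in PN, a change of -6.79 ± 0.38. Islr2 reached 1 FPKM in PN alone, so its direction was fixed by how it passed. The ligand Efnb3 changed by -5.79 ± 0.27 and Sema7a by -3.94 ± 0.28, while the netrin receptor Unc5b changed by 3.13 ± 0.28 and its ligand Ntn1 by 2.53 ± 0.20. Unc5b and Ntn1 were higher in every D16 library than in any PN library.

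Receptors for Bdnf and Ntf3 were higher in PN. Ntrk2, the receptor for Bdnf, was 8.56, 8.41 and 6.27 FPKM in D16 and 54.6, 51.3 and 50.4 FPKM in PN, and Ntrk3, the receptor for Ntf3, was 4.34, 4.297 and 3.97 FPKM in D16 and 19.1, 14.2 and 15.95 FPKM in PN. D16 libraries were below PN for both, with changes of -2.61 ± 0.26 and -1.73 ± 0.19. The shared receptor Ngfr changed by 1.90 ± 0.51, and over the whole list of 16 compared genes 8 were higher in D16, 4 higher in PN and 4 not called.

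Immediate-early genes, which respond to activity and to growth factors, split by gene. Of 29 compared, 14 were higher in D16, 10 were not called and 5 were higher in PN, the last count being 3 without PN replicate 1 and 8 without PN replicate 2. Egr1 was 141, 182 and 147 FPKM in D16 and 4.6, 3.39 and 10.2 FPKM in PN, a change of 4.59 ± 0.36, and Atf3, induced by nerve injury and stress, changed by 4.94 ± 0.35. Npas4, which answers to synaptic activity in neurons, was 0, 0.0525 and 0.116 FPKM in D16 and 7.39, 1.08 and 18.8 FPKM in PN, and Nr4a3 was 0.982, 2.597 and 2.08 FPKM in D16 and 56.02, 33.3 and 59.6 FPKM in PN. D16 libraries were uniform and high for Egr1 and near 0 for Npas4, and PN replicate 2 was the lowest PN library for both Egr1 and Npas4. Fos was 18.8, 12.3 and 18.8 FPKM in D16 and 19.5, 1.66 and 31.5 FPKM in PN, with PN replicate 2 far below the other PN libraries, and was not called.

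Genes of cell division were called in both directions, and most called inhibitors and p53 targets were higher in D16. Of 31 cell cycle genes compared, 18 were higher in PN, 12 of them at 1 FPKM in PN alone, 4 were higher in D16 and 9 were not called. Of the 19 genes outside those 12, 6 were higher in PN and 4 higher in D16. Top2a, an enzyme of dividing cells, was 0.264, 0.352 and 0.493 FPKM in D16 and 4.87, 6.42 and 10.7 FPKM in PN, and Mki67, the Ki-67 antigen, was 0.115, 0.2503 and 0.0356 FPKM in D16 and 1.07, 1.57 and 2.92 FPKM in PN. Both are among the 12 that reached 1 FPKM in PN alone. The 22 progenitor genes summed to 1263 to 3674 FPKM in PN and 2181 to 2881 FPKM in D16, and their part in the PN values of the cell cycle genes was not tested. Ccnd1, cyclin D1, was 50.5, 55.3 and 66.4 FPKM in D16 and 14.5, 15.1 and 17.3 FPKM in PN, a change of 1.81 ± 0.19 toward D16.

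Of 24 cell cycle inhibitors and p53 targets compared, 11 were higher in D16, 11 not called and 2 higher in PN (1 without PN replicate 3). Cdkn2a, whose locus encodes the inhibitors p16 and p19ARF, is annotated at chr4:89274473-89294619 and was 434, 176 and 433 FPKM in D16 and 0.2898, 0.724 and 1.596 FPKM in PN. The D16 libraries were all high and the PN libraries near 1 FPKM, a change of 7.49 ± 0.30 (adjusted p = 9.5e-11). The neighbouring inhibitor Cdkn2b was 86.3, 39.7 and 65.5 FPKM in D16 and 0.974, 1.07 and 3.11 FPKM in PN, a change of 4.59 ± 0.30. Cdkn2d, another inhibitor of the family, ran the other way with a change of -1.88 ± 0.27. The p53 targets Perp, Phlda3 and Pmaip1 changed by 5.10 ± 0.22, 3.30 ± 0.28 and 3.27 ± 0.28, and Bax lay within 2-fold at 229, 97.3 and 189.6 FPKM in D16 and 141, 145 and 214 FPKM in PN.

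Among lists in which no gene had passed through one group alone, lysosomal genes had the largest share higher in D16. Of 33 compared, none through one group alone, 26 were higher in D16, 1 higher in PN (2 without PN replicate 3) and 6 not called, with a median change of 2.495. Their share of all FPKM was 1.71 to 2.08% in D16 and 0.429 to 0.470% in PN. Cd63, a tetraspanin of late endosomes, was 3249.5, 2190.3 and 3398 FPKM in D16 and 64.7, 94.8 and 110.2 FPKM in PN, a change of 5.03 ± 0.23. Ctsz, a lysosomal protease, changed by 5.19 ± 0.21 and Laptm4b by 4.82 ± 0.16. Gpnmb, a glycoprotein of melanosomes and lysosomes annotated at chr6:49036518-49058182, was 135, 326 and 878 FPKM in D16 and 0.577, 0.916 and 3.08 FPKM in PN. The D16 libraries of Gpnmb spread several-fold and were all far above PN. Cd68 is also on the microglia list, of whose 5 compared genes 3 were higher in D16 (1 at 1 FPKM in D16 alone) and 2 higher in PN (both at 1 FPKM in PN alone), and the part of such cells in the lysosomal values was not tested. The 1 member higher in PN was Map1lc3a, an autophagosome protein, at 85.8, 91.4 and 115 FPKM in D16 and 435, 319 and 339 FPKM in PN, and its relative Map1lc3b lay within 2-fold at 231, 237 and 230.3 FPKM in D16 and 140.4, 172 and 152 FPKM in PN.

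Most called genes of antigen presentation and inflammation were also higher in D16. Of 17 interferon and MHC class I genes compared, 10 were higher in D16, 1 higher in PN and 6 not called, with a median change of 1.83. B2m, the light chain of MHC class I, was 1529, 895 and 1554 FPKM in D16 and 50.6, 51.4 and 113 FPKM in PN, a change of 4.25 ± 0.31. H2-D1 and H2-K1, classical heavy chains whose similar sequences can share reads, changed by 3.84 ± 0.30 and 3.31 ± 0.41. Ifitm3, an interferon-induced membrane protein, was 3.06, 0.6103 and 3.93 FPKM in D16 and 9.16, 19.5 and 70.9 FPKM in PN, higher in PN and most of all in PN replicate 3. Of 20 genes of NF-kB signalling and inflammation, 12 were higher in D16 (4 at 1 FPKM in D16 alone), 1 higher in PN and 7 not called. Cd40, a receptor of the tumour necrosis factor family annotated at chr2:165055614-165071654, was 145, 293 and 127 FPKM in D16 and 0, 0 and 0.225 FPKM in PN. It was listed at 0 in PN replicates 1 and 2, and the change was 7.37 ± 0.47. Cd40 is among the 4 at 1 FPKM in D16 alone, so its direction was fixed by how it passed. The NF-kB subunit gene Nfkb2 changed by 3.35 ± 0.24, Lcn2 by 2.56 ± 0.73, and the adhesion molecule Vcam1, the member higher in PN, by -2.84 ± 0.36.

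Genes of metal and redox handling stood out by level. Mt1, a metallothionein, was 5554, 5169 and 5430.3 FPKM in D16 and 125, 344 and 302 FPKM in PN. It was among the 10 most abundant genes of D16, with replicates close together, and changed by 4.51 ± 0.39 (adjusted p = 1.2e-07), while Mt2 changed by 3.29 ± 0.48. Mt3, the neural metallothionein, was 276, 287 and 373 FPKM in D16 and 94.2, 360.1 and 448 FPKM in PN, with overlapping groups and no call. The list of metallothionein and Nrf2 genes took 2.85 to 3.71% of all FPKM in D16 and 0.833 to 0.999% in PN, and 8 of its 20 genes were higher in D16, 1 higher in PN and 11 not called. Hmox1, heme oxygenase, changed by 3.02 ± 0.33 and Srxn1 by 3.55 ± 0.22. Of 24 genes of endoplasmic reticulum and integrated stress, 19 were not called; 3 were higher in D16 (6 without PN replicate 1 and 5 without PN replicate 3) and 2 higher in PN (1 without D16 replicate 2, PN replicate 1 or PN replicate 3), and Ddit3, the stress factor CHOP, changed by 2.40 ± 0.28.

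Metabolic genes divided by pathway. No gene of the 33 of the respiratory chain was called in either direction, by limma at the thresholds above, with 2 and 5 passing toward D16 and PN when no minimum was set on the change (2 and 6 at an unadjusted p below 0.05), and 27 of the 33 lay within 2-fold, with a median change of -0.06. Atp5c1, a subunit of ATP synthase, was 342, 333 and 360.0 FPKM in D16 and 321, 371 and 348 FPKM in PN. Of 28 genes of sterol and fatty acid synthesis, 15 were higher in PN, none higher in D16 (1 at an unadjusted p below 0.05) and 13 not called by limma, with a median change of -1.08. Hmgcs1, an early enzyme of the mevalonate pathway, was 29.1, 53.3 and 29.6 FPKM in D16 and 775, 905 and 459.7 FPKM in PN, a change of -4.22 ± 0.30 (adjusted p = 1.6e-08), and Fdps changed by -3.07 ± 0.35. D16 replicate 2 was the highest D16 library for Hmgcs1 and for Fdps, at 36.1, 127 and 56.7 FPKM in the latter, and PN replicate 3 was the lowest PN library for both.

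Of 23 glycolysis and lactate genes, 7 were higher in D16, 2 higher in PN (1 when D16 replicate 2 or 3, or PN replicate 1 or 2, was left out) and 14 not called. As shares, 30.4% were higher in D16 and 8.7% in PN, beside 20.6% and 15.9% of all genes compared. The lactate transporters Slc16a1 and Slc16a3 changed by 2.95 ± 0.40 and 4.09 ± 0.28, the glucose transporter Slc2a1 by 1.96 ± 0.24 and the hexokinase Hk2 by 3.37 ± 0.49. Gapdh was within 2-fold at 1717, 1995 and 1713 FPKM in D16 and 1540.2, 1379 and 1367 FPKM in PN. Eno2, the neuronal enolase, was 223, 307 and 267 FPKM in D16 and 85.2, 75.6 and 34.1 FPKM in PN, higher in every D16 library, a change of 2.11 ± 0.27.

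Matrix and developmental signalling genes added to the D16 side. Of 28 extracellular matrix genes compared, 11 were higher in D16 (2 at 1 FPKM in D16 alone), 5 higher in PN (3 at 1 FPKM in PN alone) and 12 not called. Hapln4, a link protein of perineuronal nets, was 51.8, 84.6 and 86.98 FPKM in D16 and 0.501, 0.3604 and 0.247 FPKM in PN, and its relative Hapln1 was 0, 0.0165 and 0.0971 FPKM in D16 and 4.78, 14.9 and 5.44 FPKM in PN. Hapln4 reached 1 FPKM in D16 alone and Hapln1 in PN alone, so the direction of each was fixed by how it passed. Sparc was 25.6, 6.79 and 10.96 FPKM in D16 and 29.7, 50.7 and 207 FPKM in PN, with PN replicate 3 far above the other PN libraries. Of 24 Wnt and Notch target genes compared, 11 were higher in D16 (5 at 1 FPKM in D16 alone), 4 higher in PN (1 at 1 FPKM in PN alone) and 9 not called. Axin2, a direct target of Wnt signalling, was 38.7, 98.5 and 148 FPKM in D16 and 6.71, 5.67 and 7.098 FPKM in PN, and Sp5, Nkd1 and Lef1, also Wnt targets, changed by 6.52 ± 0.44, 4.47 ± 0.37 and 3.55 ± 0.39. Replicate 3 was the highest D16 library for Axin2, and every D16 library exceeded every PN library. Hes5, a Notch target of progenitors, was 0, 0.0781 and 0 FPKM in D16 and 6.31, 7.505 and 6.95 FPKM in PN. Sp5 and Lef1 reached 1 FPKM in D16 alone and Hes5 in PN alone, so their directions were fixed by how they passed.

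Among imprinted genes, which are expressed from one parental copy, 5 of 21 were higher in D16, 9 higher in PN and 7 not called. Nnat, neuronatin, was 118, 81.6 and 83.2 FPKM in D16 and 2530.3, 2383 and 1908 FPKM in PN, a change of -4.59 ± 0.32. Igf2 and Dlk1, fetal growth genes, changed by 4.83 ± 0.65 and 5.01 ± 0.51 toward D16, and Gnas lay within 2-fold at 771, 692 and 651 FPKM in D16 and 824, 813 and 774 FPKM in PN. Of 41 genes of BET, Myc and chromatin regulation, 24 were not called, 13 were higher in PN and 4 higher in D16. Mycn, a factor of proliferating neuroblasts, was 1.19, 0.509 and 1.596 FPKM in D16 and 51.8, 48.4 and 49.96 FPKM in PN, a change of -4.64 ± 0.21. Hexim1, an inhibitor of the elongation factor P-TEFb, was 51.8, 43.7 and 51.1 FPKM in D16 and 9.79, 12.4 and 13.2 FPKM in PN, a change of 1.97 ± 0.16, and the bromodomain gene Brd2 lay within 2-fold at 119.7, 109 and 88.7 FPKM in D16 and 120.4, 95.6 and 92.1 FPKM in PN. Dpf1, a subunit of the neuronal BAF remodelling complex, was 3.53, 5.297 and 4.97 FPKM in D16 and 58.6, 46.1 and 52.1 FPKM in PN. Mycn and Dpf1 were higher in every PN library than in any D16 library, and Hexim1 the reverse.

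The genes that matched most closely between the groups, among those with a mean of at least 100 FPKM, were Aamp, Arl1, Atp5c1, Chmp4b, Erp29 and Ociad1. Aamp was 117, 85.4 and 109 FPKM in D16 and 109, 95.9 and 104 FPKM in PN, with a change of 0.00 and an interval of -0.39 to 0.39. Chmp4b, of the ESCRT machinery that shapes membranes, was 157, 89.3 and 141 FPKM in D16 and 126, 126 and 125 FPKM in PN, and Erp29, a chaperone of the endoplasmic reticulum, was 144, 76.6 and 122 FPKM in D16 and 115, 104 and 113 FPKM in PN. The libraries of the groups overlapped in each.

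Gene length, which played no role in choosing the genes, was compared with the direction of change for the 12932 genes whose symbol or synonym matched RefSeq on GRCm38.p6, in 5 bins of nearly equal number. The share higher in PN was 17.8% in the bin of shortest genes (median length 4.31 kb), 13.9%, 13.3% and 12.7% in the next, and 22.2% in the bin of longest genes (median 141 kb). The share higher in D16 stayed between 19.97 and 21.5% in all bins. The share within 2-fold was 36.2% and 34.0% in the shortest and longest bins and 44.3 to 45.9% between them. Among genes at 1 FPKM in all 6 libraries the share higher in PN had the same order at the ends, 14.9% in the shortest bin and 20.04% in the longest, against 11.6 to 12.3% between them. These are descriptions over genes, which are not independent, and carry no test.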

How the data were processed

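RNA was profiled in 15 mouse libraries in 5 groups of 3, and the analysis used the D16 and PN groups, with the others only in the shared estimate of spread. The values are FPKM per gene symbol, made and deposited by the authors in one table; per the labels' protocols, total RNA was taken with a column kit and sequenced in paired reads of 150 bases, and per the submitters' processing notes the build was mm10 (GRCm38). The aligner, the quantification program and the gene annotation are not given in the sources used here. Since FPKM are not counts, no count test was used.

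Genes with at least 1 FPKM in 3 or more of the 15 libraries were fitted on log2(FPKM + 1), with a pseudocount of 1 FPKM, in limma 3.58.1 (R 4.3.3) with a trended prior, 5 group means and 10 residual degrees of freedom. P-values were adjusted by Benjamini-Hochberg over all fitted genes, and calls needed both a value below 0.05 there and a change of 1 or more in size on the log2 scale. The code was tested on simulated data. Values by gene are given for the 12 largest changes each way with separated libraries and a mean of at least 5 FPKM, up to 5 called genes each way and 3 uncalled genes in each of 42 gene lists, a panel of 33 markers, and the 6 closest matches above 100 FPKM; genes outside this rule are said to be so, and some genes within it are not reported here. The compared genes, the lists and the tests were chosen with earlier results of these data known. Gene positions and upstream sequences came from RefSeq tables on GRCm38.p6. A comparison of promoter content between called and uncalled genes was void, since 79.5% of the compared genes had an entry, under the 80% required. Alternatives were another pseudocount, other filters, other scalings, a replicate block, a fit of the 6 libraries, no minimum change and each library left out.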

Additional observations from a re-analysis of the deposited data

How the results depend on the processing

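No called gene chosen by the naming rule changed direction under any of the 16 alternatives. No uncalled gene of that rule became called in the direction opposite to its change. Changes of sign in genes that stayed uncalled were not counted. Without a minimum on the change, 4484 genes were higher in D16 and 3827 higher in PN, which follows from dropping that condition. Leaving out each library in turn gave 2615 to 2783 genes higher in D16, 1997 to 2168 higher in PN and 4759 to 5171 within 2-fold. D16 replicate 2 and PN replicate 3, which stood farthest from their groups, were left out together in an alternative chosen after seeing the data, with 2840 genes higher in D16, 2080 higher in PN and 4753 within 2-fold. Other scalings moved the balance: with equal FPKM totals 2451 and 2367 genes were called, 50.9% of them higher in D16 beside 56.4% as deposited, and the median of all genes shifted by -0.10; with quantile normalization 2362 and 2287 were called. With a pseudocount of 0.1 FPKM the counts were 3053 and 2338, and with a filter at 5 FPKM, which tests fewer genes, 1925 and 1633. Between 3557 and 4741 of the 4741 calls were shared with each alternative. Of 425 genes chosen by that rule, 309 were called; 275 of these kept their call in every alternative that fitted them, and 34 lost it in at least 1.

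List counts that moved by more than 1.5 times under a scaling were the genes higher in D16 for extracellular matrix (11 to 7 with quantile normalization), NF-kB and inflammation (12 to 6), potassium channels (4 to 2), glutamatergic genes (2 to 1 in both scalings) and sodium pumps (2 to 1 with equal totals), and the genes higher in PN for intermediate filaments and lysosome (1 to 2 each with equal totals), glycolysis (2 to 1 with quantile normalization) and the oligodendrocyte lineage (1 to 2 and 1 to 3 in the 2 scalings). The filter at 5 FPKM left 11 glutamate receptor genes higher in PN in place of 20, 5 cell cycle genes in place of 18 and 9 Hox genes higher in D16 in place of 25.

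Replicate numbers did not pair the samples: deviations of same-numbered D16 and PN libraries correlated at -0.15, -0.06 and 0.06. With a replicate block, 2649 genes were higher in D16, 2059 higher in PN and 4576 within 2-fold, 7 genes of that rule lost their call, and intermediate filament genes higher in D16 went from 3 to 1. Read depth is unknown, so values near 1 FPKM carry an error that cannot be stated.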

Other observations

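Families picked by the start of their symbol, after their values had been seen, gave further descriptions without a test. They were read at the scaling as deposited. The counts of each family stand beside 20.6% of all compared genes higher in D16 and 15.9% higher in PN. Of 71 protocadherin genes, adhesion molecules that give neurons distinct surface identities, 63 were compared. None was higher in D16 (5 at an unadjusted p below 0.05 in limma), 35 were higher in PN (11 at 1 FPKM in PN alone) and 28 were not called. Alpha and gamma protocadherins share constant exons within their clusters, so reads could be split between members and single values are uncertain.

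Among ribosomal protein genes, calls were read against the 20.6% of all compared genes that were higher in D16. Of 47 genes of the large subunit, 11 were higher in D16, none was higher in PN (1 at an unadjusted p below 0.05 in limma) and 36 were not called, with a median change of 0.68. Of 33 genes of the small subunit, 10 were higher in D16, none was higher in PN (0 also at an unadjusted p below 0.05) and 23 were not called, with a median of 0.73. Ribosomal protein genes have many processed copies, which can take reads. Eef1a1, the elongation factor that brings tRNA to the ribosome, was the most abundant gene of D16, with a mean of 13785 ± 4507 FPKM (SD, n = 3) beside 3756 FPKM in PN.

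Of 37 proteasome genes compared, 33 were not called, 2 were higher in D16 and 2 in PN. Of 329 zinc finger genes named Zfp, 265 were not called, 29 were higher in D16 and 35 in PN, with a median change of -0.04. Replication-dependent histone genes, whose messages mostly lack a poly(A) tail, differed from one another. Of 21 compared, 10 were higher in D16 (5 at 1 FPKM in D16 alone), 1 higher in PN and 10 not called. Hist1h2bc was 149, 123 and 125 FPKM in D16 replicates 1, 2 and 3 and 85.5, 28.7 and 9.09 FPKM in PN replicates 1, 2 and 3. Hist3h2ba ran the other way, at 37.5, 24.1 and 23.9 FPKM in D16 and 327, 269.9 and 213 FPKM in PN.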
